A study of Mus musculus with 4 samples.

Results

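Long stretches of the mouse autosomes that carried no CTCF summit in the conservative between-replicate peak list of the hippocampus are described. They are the intervals of 300 kb or more between neighbouring CTCF summits on the same autosome, with at most 10% of their bases in assembly gaps. There were 696 of them among 88052 autosomal intervals, 0.79% of the intervals. Together they spanned 358 Mb, 14.9% of the 2396 Mb of autosomal sequence outside gaps. The intervals were chosen by the positions of the measured peaks that passed an irreproducible discovery rate (IDR, an estimate of how many calls fail to recur between replicates) of 0.05. Their number, length and emptiness therefore follow from the choice, and no test was applied to them or to the peaks at their edges.

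Chromatin immunoprecipitation and sequencing (ChIP-seq) of CTCF was performed in hippocampal tissue of B6CASTF1/J mice, hybrids of a C57BL/6J and a CAST/EiJ parent. All animals were males aged 2 months, and no group was treated. The 4 libraries formed 2 biological replicates with 2 technical libraries each, and every replicate was a pool of 7 biosamples under a shared donor entry. Each replicate gave a single signal value per peak, the read depth is unknown, and whether the pools came from separate animals is not stated. All positions are on mm10, the assembly of the C57BL/6J genome, and genes are those of the GENCODE M21 basic annotation.

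CTCF is a zinc-finger protein that binds a directional DNA motif and halts cohesin as it extrudes chromatin loops. Loops form most readily between motifs that point toward each other. CTCF sites are dense in gene-rich chromatin and sparse in gene deserts. Clusters of olfactory and vomeronasal receptor genes, which sensory neurons of the nose express, are kept silent in other tissues.

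The core of the CTCF motif is 12 bases long. The following sequences lay at summits that bound the longest intervals and are shown because they give the orientation of the boundary sites. Each is 30 bases, read 5′ to 3′ on the strand of the motif, from the RefSeq copy of GRCm38. Capitals mark the match to the core, with at most 1 mismatch, that lay within 50 bp of the summit.
Left edge of the longest interval, chr7:19956707-19956736, minus strand: caatcttgaACAGTAGGTGGCgccgctgta
Right edge of the longest interval, chr7:23968187-23968216, plus strand: gttggttggCCACCAGAGGGCactcttgat
Edge shared by the second and the eighth longest, chr7:10354874-10354903, plus strand: ctaggtttgCCACAAGGGGGCagacccatc
Left edge of the seventh longest, chr5:93684829-93684858, plus strand: acctggtttCCAGTAGGGGGCagcactgac
Right edge of the seventh longest, chr5:95811063-95811092, minus strand: acctgttggCCAGTAGAGGGCagcacagac
The motifs at the edges of the longest interval both pointed out of it, whereas those of the seventh longest, both exact matches, pointed into it.

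The median distance between neighbouring autosomal summits was 10.5 kb. The long intervals had a median length of 417 kb, with a lower quartile of 344 kb and an upper quartile of 567 kb. Of the 696, 229 reached 500 kb, 37 reached 1 Mb and 8 reached 2 Mb. The 8 intervals of 2 Mb or more held 21 Mb, and the longest spanned 4011 kb. Another 18 intervals of 300 kb or more were left out because of assembly gaps, and 10 of the 696 held some gap sequence. Of the 3 left out on chromosome 4, the longest spanned 1451 kb with 27.6% gap and held the starts of 12 major urinary protein genes.

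**Figure D1:**
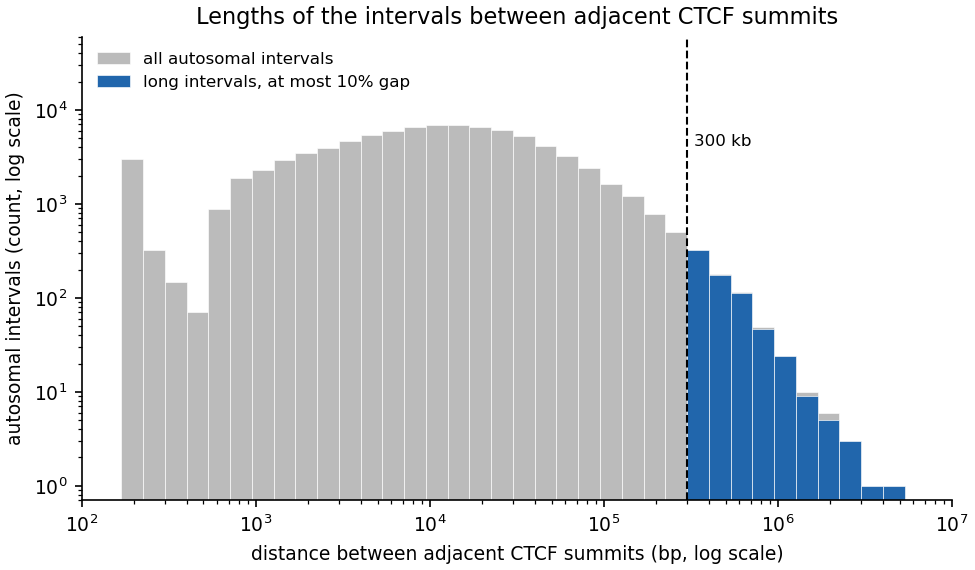
Number of autosomal intervals (vertical axis, log scale) by the distance between adjacent CTCF summits in bp (horizontal axis, log scale). Grey bars are all 88052 intervals and blue bars the 696 long ones, which lie right of the dashed line at 300 kb and reach 4011 kb.

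The intervals were spread unevenly over the chromosomes. Chromosome 7 had 37 long intervals that covered 21.7% of its non-gap sequence, the highest share, and 5 of the 10 longest intervals lay on chromosomes 7 and 17 within receptor gene clusters. Chromosome 11 had 16 that covered 6.86%, the lowest share. Chromosome 1 held the most, 66, and chromosome 19 the fewest, 13. Summits were also shared between long intervals: 95 of the 1297 distinct flanking summits bounded a long interval on either side. The run with the most intervals was one of 5 on chromosome 5 between Stim2, a calcium sensor of the endoplasmic reticulum, and the protocadherin gene Pcdh7. This run covered 2420 kb with no protein-coding start, and the 4 summits inside it had signals of 58, 568, 194 and 244. Signal here is the peak score that the authors deposited, on a scale the sources do not name. Runs of 4 intervals lay between Gje1 and Cited2 on chromosome 10 (2423 kb) and between Pcdh7 and G6pd2 on chromosome 5 (2284 kb). By length, the second and the eighth longest intervals together spanned more, 5113 kb. The runs were picked after their lengths were seen.

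The longest interval, chr7:19956708-23968187, held 102 protein-coding starts, of which 63 were Vmn1r genes, receptors for pheromones in the vomeronasal organ. From its left edge it began with Ceacam20, Nlrp9b, Vmn1r91, Gm16442 and Vmn1r93. The nearest protein-coding starts beyond its edges were Igsf23, 5952 bp away, and Vmn1r181, 6428 bp away. The left flanking peak had a signal of 672, with 318 in replicate 1 and 358 in replicate 2, and the right one had 431, with 208 and 224. Of the 32-base words in this interval, 87% occurred more than once on the chromosomes of the assembly.

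The next 3 also held tandem gene families. The second, chr7:7299765-10354882 (3055 kb), held 26 starts, 23 of them Vmn2r genes, from Clcn4, Vmn2r30, Gm45783, Vmn2r31 and Vmn2r32 on. Its flanking signals were 129 (74.2 in replicate 1 and 96.5 in replicate 2) and 101 (47.3 and 52.4). The third, chr7:31316363-33982464 (2666 kb), held 24 starts, all secretoglobin genes, which encode androgen-binding proteins of saliva and tears, from Scgb2b3, Scgb1b3, Scgb2b7, Scgb1b7 and Scgb1b10 on. Its left edge was weak, at 51.8 (26.1 and 26.9), and its right edge stronger, at 251 (122 and 129). The fourth, chr17:37308666-39903066 (2594 kb), held 38 olfactory receptor genes, from Olfr102 and Olfr103 on, and 9 Esp genes for peptides secreted in tears. Its flanking signals were alike at 138 (74.5 and 59.5) and 135 (66.6 and 67.3).

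The fifth longest interval was a gene desert. At chr13:86477640-88821219 (2344 kb) it held no protein-coding start, between Cox7c, a subunit of cytochrome c oxidase, and Edil3, which encodes an extracellular matrix protein. The right summit lay 253 bp from the start of Edil3, and its signal was 61.3 (29.2 in replicate 1 and 29.5 in replicate 2). The left summit had a signal of 227 (109 and 120) and lay 430736 bp from Cox7c. The desert also held 24 weaker peaks that did not pass the IDR threshold, the highest count of any long interval. That count is not adjusted for its length of 2344 kb, and the long intervals together held 10 such peaks per Mb. The tenth longest, chr8:51448267-53279364 (1831 kb), was a desert as well, between Tenm3, a teneurin adhesion protein, and Aga, a lysosomal enzyme. Its flanking signals were 59 (26.3 and 32.5) and 394 (195 and 197).

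Of the other 4 among the 10 longest, the sixth, chr17:17973658-20136424 (2163 kb), held 15 Vmn2r genes and 2 formyl peptide receptor genes, Fpr-rs4 among them. Its flanking signals were 130 (65 and 66.3) and 57.3 (24.9 and 31.5). The seventh, chr5:93684848-95811056 (2126 kb), held 25 starts, 20 of them named only as predicted genes, from Gm7792 and Gm16429 on. Copies made up 94.5% of its 32-base words, and its flanking signals were 103 (46.3 and 54.3) and 125 (59.8 and 66.3). The eighth, chr7:10354882-12412711 (2058 kb), shared a summit with the second. It held 18 Vmn1r genes, from Vmn1r67 on, and 8 Zscan4 genes or their labelled copies. Its right flanking signal was 133 (64.5 and 68.9).

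The ninth longest, chr12:114048171-116028273 (1980 kb), covered most of the variable segments of the immunoglobulin heavy chain locus, which B cells rearrange to build antibodies. It held 87 V genes and 55 V pseudogenes but no gene annotated as protein-coding. Its flanking signals were 220 (110 in replicate 1 and 109 in replicate 2) and 554 (265 and 293). Within it lay 39 exact matches to the core motif, all on the strand of the V segments. For 35 of the 39 the nearest segment belonged to the Ighv1 family. The match was less than 1000 bp upstream of a segment in 13 cases, at distances from 740 to 969 bp. Of the 39, 24 carried the 12 bases in capitals in the first sequence below, and 7 of those had a candidate peak, a peak of the ranked list not past the IDR threshold, within 50 bp. Another 11 carried the 12 bases of the second sequence, with a candidate at 0 of them. The sequences are shown because the same core recurs along the locus, they were chosen after their counts were seen, and capitals mark the exact match.
At 1261 bp upstream of Ighv1-50, chr12:115121465-115121494, minus strand, found unchanged at 9 places: agttctggaCCAGCAGGGGGCacaatgggg
At 3347 bp upstream of Ighv1-62-1, chr12:115390460-115390489, minus strand, found unchanged at 2 places: agctcatgaCCAGCAGATGGCacaatgagg

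**Figure D2:**
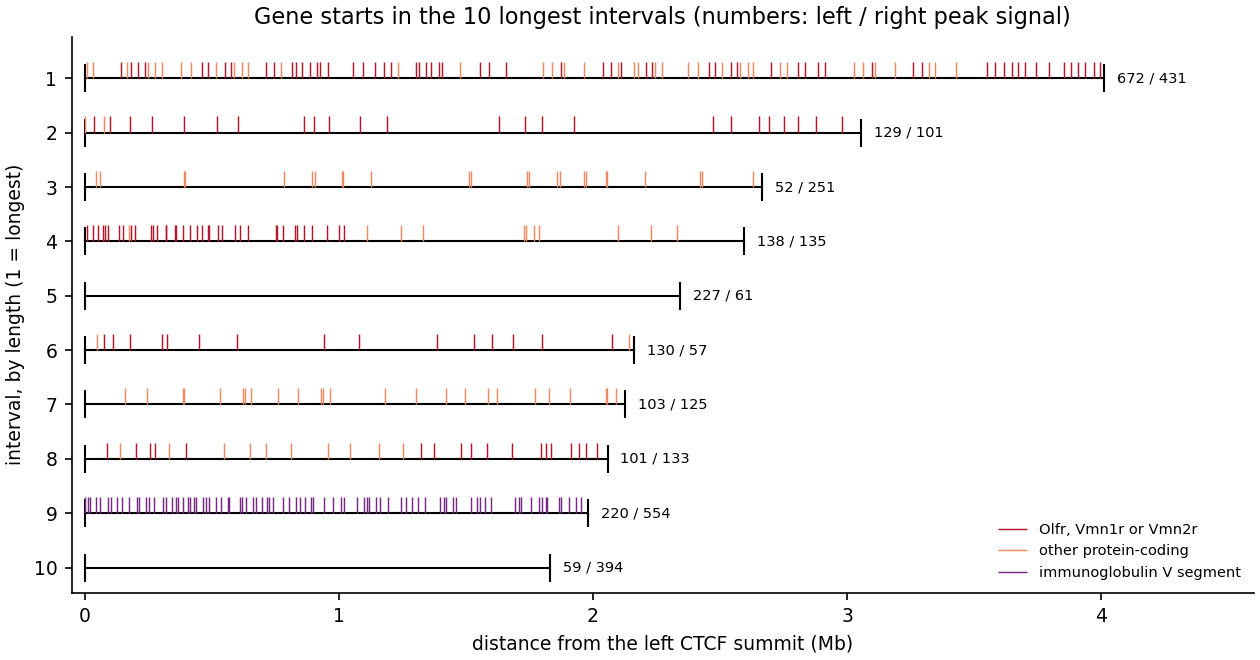
The 10 longest intervals (rows, longest on top) drawn to scale by the distance from the left CTCF summit in Mb, with gene starts as coloured ticks and the signals of the left and right flanking peaks at the end of each line. Receptor genes fill the first, the second and parts of the fourth, sixth and eighth rows, V segments fill the ninth, and the fifth and the tenth rows hold no protein-coding start.

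Inside all 696 intervals lay the starts of 1556 of 20807 autosomal protein-coding genes, 7.48% of the genes in 14.9% of the sequence. Most long intervals held none: 481 (69.1%, 95% exact binomial interval 65.5 to 72.5) had no protein-coding start. Of these, 386 also overlapped no protein-coding gene body. Having no start is not particular to the long intervals. The 87338 intervals under 300 kb held 19099 starts, so most of them had none either. The genes inside the long intervals were concentrated in few, since 47 long intervals with 10 or more starts held 1105 of the 1556. A single start was present in 87 long intervals. Long noncoding RNA genes of the lincRNA and antisense classes were also few, with 426 of 8122 (5.25%) starting inside. Pseudogenes were not: 2472 of 11594 (21.3%) lay inside, and of the unprocessed pseudogenes, which arise by copying of genomic DNA, 42.5% did. No annotated gene of any kind lay in 46 intervals.

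Chemosensory receptor genes made up 52.1% of the protein-coding starts inside. Of 1128 annotated olfactory receptor genes, 583 (51.7%) started in 27 of the intervals, Olfr1, Olfr1012 and Olfr1013 among them. Of 327 vomeronasal receptor genes, 228 (69.7%) started in 25 intervals, as did Vmn1r10 and Vmn1r100. The background for any protein-coding gene was the 7.48% given above. That background includes the receptor genes, so the share for the remaining protein-coding genes is lower. Bitter taste and trace amine receptor genes followed with 19 of 50, all of them Tas2r genes such as Tas2r102 and Tas2r103. After the longest interval, the most starts were in chr2:88356478-89544725 (1188 kb), where 54 of 56 were receptor genes from Olfr1178 on and the flanking signals were 734 and 548. An interval on the same chromosome, chr2:111155419-112197076, held 40 starts, 39 of receptor genes, with flanking signals of 198 (90.5 and 106) and 846 (405 and 445). The interval chr9:18744970-20374867 held 38 starts, 37 of receptor genes, with flanking signals of 460 (235 and 225) and 74.2 (33.3 and 39.4).

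Other families that are arrayed in tandem lay inside in shares above the 7.48%. Of the prolactin family and the placental cathepsins, made by the rodent placenta, 25 of 33 (75.8%) started inside 5 intervals, Cts3, Cts6 and Cts7 among them. Of the Skint and butyrophilin-like genes, tied to gamma-delta T cells of the skin, 9 of 17 did, with Skint1, Skint10 and Skint11. A single interval held 22 of 64 defensin genes for antimicrobial peptides, such as Defa2, Defa17 and Defa20. Another single interval held 11 of 56 natural killer and C-type lectin receptor genes, all of them Klra genes such as Klra1 and Klra10. Of the cytochrome P450 and glucuronosyltransferase genes, which metabolise steroids and drugs, 19 of 110 (17.3%) did, as Cyp2a4 and Cyp2b9. Immunoglobulin and T-cell receptor segments counted 93 of 467.

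Clustered families did not all lie in long intervals. Of 408 zinc-finger genes of the Zfp and Zscan4 type, 34 (8.33%) started inside. This is close to the 7.48% for any protein-coding gene, a background raised by the receptor genes. Further Zfp genes started in intervals on chromosomes 2 and 4 that were left out for assembly gap. Serpin genes, for protease inhibitors, counted 2 of 60, and keratin and epidermal differentiation genes 3 of 149, all in a single interval with Krtap20-2. None of the 34 annotated major urinary protein and lipocalin genes started inside, and 12 of these were in the interval left out for its gap. The families are unlike in number of genomic positions, so a share can rest on very few intervals.

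Patterning, ion channel and neurotransmitter receptor genes started inside in shares below the 7.48%. That background is raised by the receptor genes of the nose and is lower for other genes, so the difference from other genes is smaller. Of 163 patterning transcription factor genes 1 started in a long interval, Nr2f2, which directs the fate of interneurons and vessels. Nr2f2 started 1.72 kb from the left edge of an interval of 1014 kb whose flanking signals were 567 and 677. Of 199 ion channel and neurotransmitter receptor genes, 5 (2.51%) started inside. Gria4, an AMPA receptor subunit, started 0.586 kb from an edge of a 690 kb interval with signals of 42.7 and 47. Kcnh7, a voltage-gated potassium channel, started 30.2 kb from an edge in 424 kb with signals of 52.9 and 60.4. Gabrg1, a GABA receptor subunit, lay deeper, 96.1 kb from the nearer edge of 432 kb. Glra3, a glycine receptor subunit, lay 123 kb inside an interval of 504 kb, and Kcnj16, an inward rectifier, 74.4 kb inside 387 kb.

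Synaptic adhesion and axon guidance genes counted 7 of 80 (8.75%). This is near the share for any protein-coding gene, but that share is raised by the receptor genes and is lower for other genes. Several of these 7 started at the edge itself. Lrrtm4, a postsynaptic organizer, began 0.033 kb from the flanking summit, Slitrk6 0.091 kb and Cntnap3 0.108 kb. Cntnap5c began 1.51 kb and Lrp1b, a very long gene of the lipoprotein receptor family, 8.51 kb from it. Cntn6, a contactin, started 13.4 kb inside an interval of 460 kb, and its body of 371 kb held no summit. Sema3a, a repulsive guidance cue, started 38.7 kb inside an interval of 599 kb. Among the cadherins, 1 of 31 started inside, Cdh19, at 97.5 kb from the nearer edge.

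Start sites next to an edge were the exception over all genes. Of the 1556 starts inside, 21 (1.35%) lay within 1 kb of a flanking summit and 1028 (66.1%) over 100 kb from either. These shares mostly describe gene clusters, since 1105 of the starts lay in the 47 intervals with 10 or more. Among the 87 intervals with a single start, 9 had it within 1 kb of a summit, as for Fzd1, a Wnt receptor, at 0.018 kb and Rprm at 0.095 kb. In 26 of the 87 the start lay over 100 kb from both edges. Those included Oprk1, the kappa opioid receptor, 317 kb from the nearer edge, and P2ry1, a purinergic receptor, 183 kb from it. Nova1, a neuronal splicing factor, lay 172 kb from the nearer edge of a 517 kb interval. These 5 genes were picked after their values were seen.

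Some intervals lay within a gene. Of the 696, 40 were wholly inside the body of a protein-coding gene, and 33 genes were such hosts. The gene with the most sequence in long intervals was Cntnap2, a neurexin-like adhesion protein: 959 kb of its 2245 kb, in 3 intervals. Next came Nkain2 with 952 kb (79.3% of the gene), the neuregulin receptor gene Erbb4 with 929 kb (86.3%), Sgcz with 774 kb, Fhit with 764 kb and Ptprd, a receptor phosphatase of synapses, with 763 kb. Galnt13, Lrrc4c, Dpp10 and Zfp804b followed with 598, 585, 561 and 546 kb. These genes were not empty elsewhere, since Cntnap2 held 22 summits in all and Ptprd 26. Zfp804b had 94.8% of its length in a single long interval.

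Synaptic adhesion genes and neurotransmitter receptor genes were also hosts. The interval in Lsamp was 325 kb long, with flanking signals of 68.3 and 882, the latter the strongest of any flanking peak. The interval in Cntn4 (541 kb) had signals of 230 and 263, and the one in Cntnap5b had 434 and 299. Those in Grm5, a metabotropic glutamate receptor gene, and Gabrg3 were 335 and 313 kb long with edges under 90 in signal: 89.7 and 64.5 in Grm5, 65 and 89.1 in Gabrg3. Kcnip4, which encodes a potassium channel partner, had an interval of 328 kb between signals of 384 and 491. Among the cadherins, Cdh12 contained an interval of 337 kb.

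The peaks at the edges were slightly weaker than autosomal peaks at large. The 1297 distinct flanking summits had a median signal of 149 (quartiles 79.8 and 397), against 165 (85.2 and 466) over all 88071 autosomal summits. The ratio of the medians was 0.905. The median was higher than 165 at intervals with a receptor gene start (198) or another protein-coding start (172). It was 156 at those that overlapped a gene but held no start and 136 at those without a protein-coding gene. Peaks that bounded intervals under 10 kb had a median of 169, and those at 100 to 300 kb one of 156. Flanking peaks were scarce among the strongest peaks, with 50 (3.86%) among the top 10%, and close to the overall share among the lowest 10%, with 145 (11.2%). In 0 intervals did both flanking peaks rank among the top 10%, and in 212 both were below the autosomal median. The 95 summits shared by neighbouring long intervals had a median of 105 and ranged from 43.1 to 781. The IDR threshold was set on these signals, so the values are a description.

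The replicates gave similar values at the edges. The median signal of flanking peaks was 73.3 in replicate 1 and 79.7 in replicate 2, against 81.9 and 87.7 for all autosomal peaks past the threshold. The log2 ratio of replicate 2 to replicate 1, less its median over all such peaks, had an SD of 0.32 at the flanks and 0.41 over all. At 7 flanking summits the replicates differed by more than 2-fold on this scale. Of the 1297 flanking summits, 53 (4.09%, exact interval 3.08 to 5.31) lay within 1 kb of a protein-coding start, against 9.12% of all autosomal summits. The median distance to the nearest protein-coding start was 310 kb at the flanks and 25.2 kb over all summits.

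**Figure D3:**
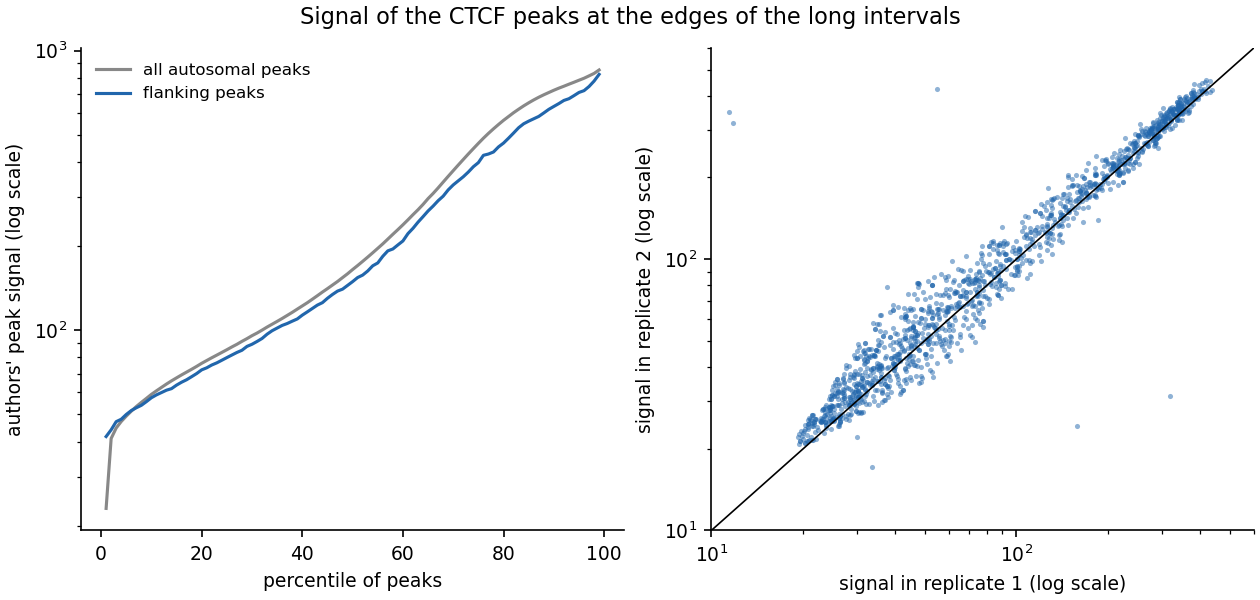
Left, the authors' peak signal (log scale) at each percentile of all autosomal peaks (grey) and of the 1297 flanking peaks (blue), with medians of 165 and 149. Right, the signal in replicate 1 and replicate 2 at the flanking peaks (both log scales, line of equality). Once the median log2 ratio of all peaks past the threshold is subtracted, which the plot does not do, 7 summits differ by more than 2-fold.

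The intervals with the strongest edges on both sides were chr4:39697809-40014774, with signals of 709 (339 in replicate 1 and 371 in replicate 2) and 689 (338 and 354), chr19:59743117-60144544, with 682 (328 and 356) and 829 (404 and 424), and chr2:36276742-37338998, with 669 (332 and 339) and 671 (320 and 352). The latter held 28 olfactory receptor genes, and the interval on chromosome 19 a single start, that of Rab11fip2. The weakest edge bounded chr2:63704172-64013261, with a signal of 12.9 in the list and 24.7 and 29 in the replicates. The left edge of chr13:5861037-6241065, near Klf6, had 18.8 in the list but 158 in replicate 1 and 24.2 in replicate 2. The left edge of chr14:25848976-26303286 had 19.6 in the list, 32.3 in replicate 1 and 39.6 in replicate 2. At these 3 summits the replicate values exceeded the list's own value, whereas at the other summits named here they were lower.

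The base composition changed steadily with interval length. GC content was 46.4% in intervals under 10 kb, 44.8% at 10 to 30 kb, 42.6% at 30 to 100 kb, 39.9% at 100 to 300 kb and 38.1% in the long ones. CpG dinucleotides fell from 0.258 to 0.148 of the number that base composition would give. Of the 696 long intervals, 605 were under 40% GC, and the range was 35.4% to 46.9%. Soft-masked repeats rose from 26% of bases in the shortest class to 44.9% in the longest. Protein-coding starts per Mb went from 31.1 through 14.1, 6.86 and 3.14, and stood at 4.35 in the long intervals, above the class below. Long noncoding RNA starts per Mb went from 7.41 down to 1.19.

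**Figure D4:**
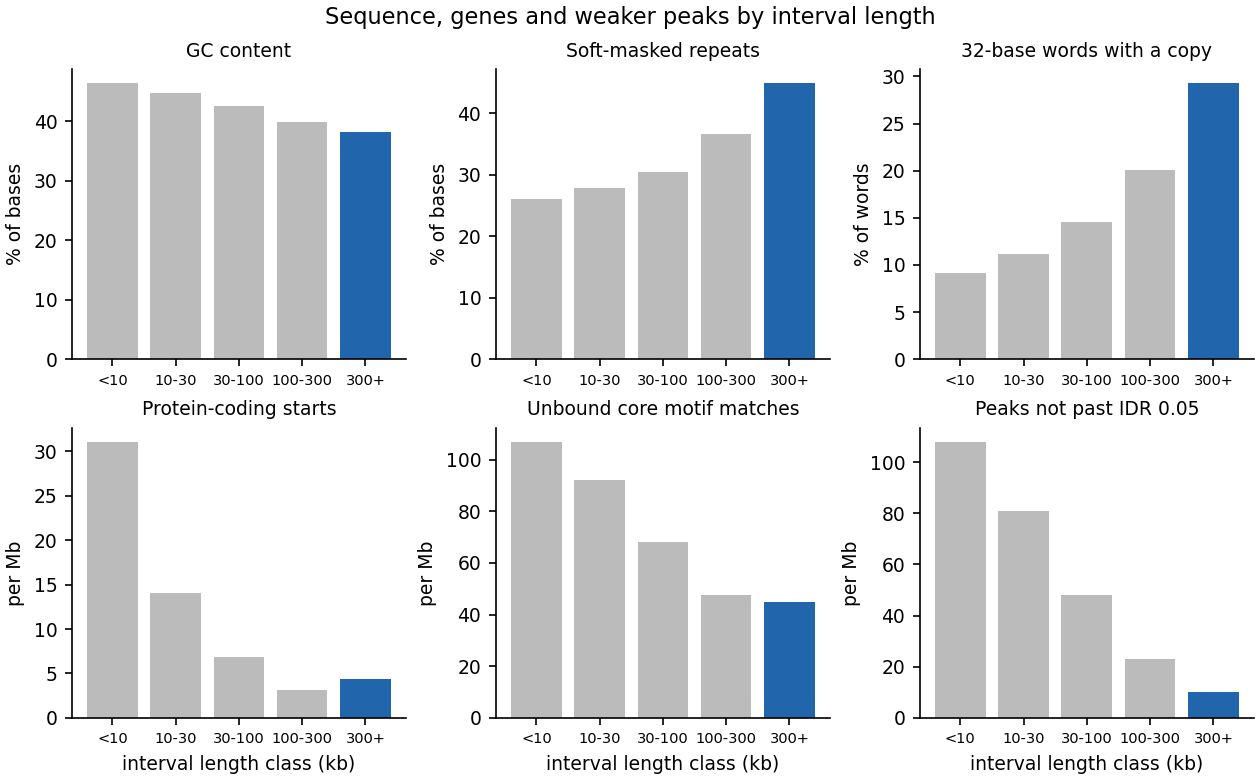
Values by interval length class in kb (horizontal axes), with the long intervals in blue: GC content, soft-masked repeats and repeated 32-base words in percent, and protein-coding starts, core motif matches outside peaks and peaks not past the IDR threshold per Mb. GC falls from 46.4% to 38.1% and repeated words rise from 9.19% to 29.3% with length, while protein-coding starts are lowest at 100 to 300 kb.

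Repeated sequence also rose with length. The share of 32-base words that occurred more than once on chromosomes 1 to 19, X and Y was 9.19% in intervals under 10 kb, 20.1% at 100 to 300 kb and 29.3% in the long intervals. Reads from such words can have several equal places in a genome, and the part of this in the absence of peaks was not tested. The share differed with the genes inside. It was 44.8% in the 51 intervals with a receptor gene start, 39.8% in the 164 with another protein-coding start, 19.2% in the 95 that overlapped a gene but held no start, and 23.2% in the 386 without a protein-coding gene. Over 30% of words were repeated in 134 intervals, which held 1135 of the 1556 starts and 561 of the receptor genes. The other 562 intervals spanned 268 Mb and held 421 starts, 250 of them receptor genes, and 453 of these intervals had no start. Median flanking signal was 194 in the first group and 143 in the second.

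**Figure D5:**
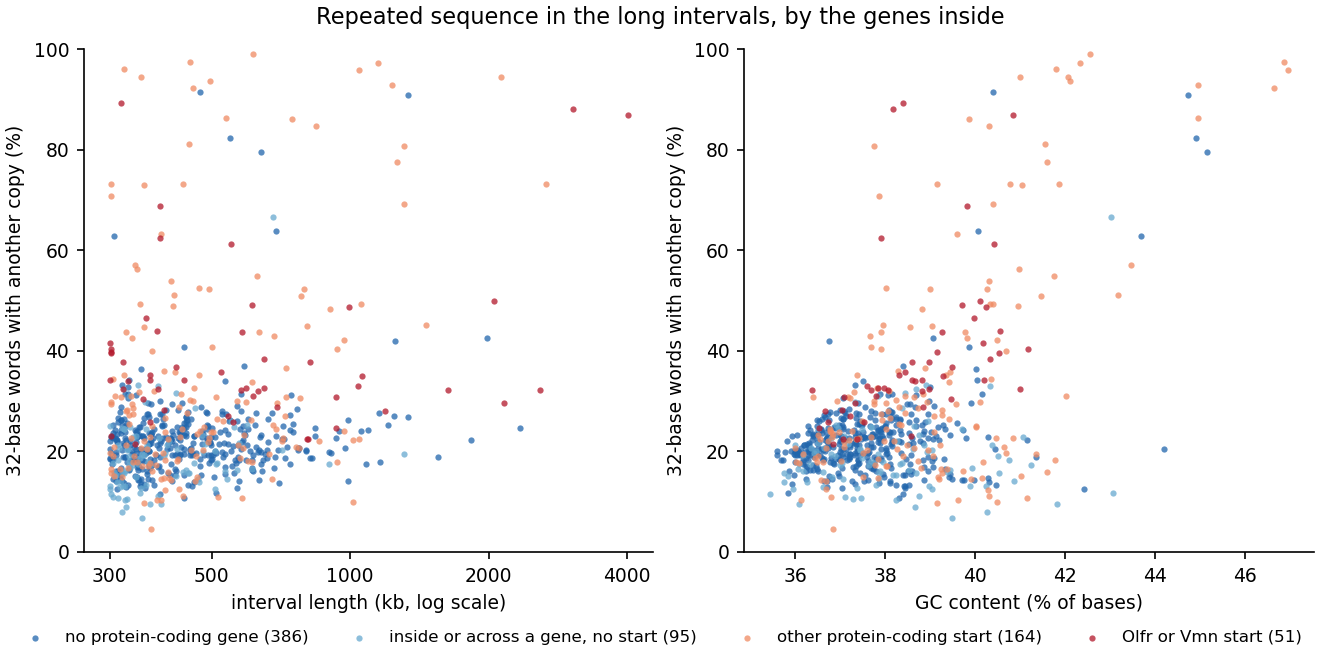
The share of 32-base words with another copy (vertical axes, percent) against interval length (left, kb, log scale) and GC content (right, percent), 1 point per long interval, coloured by the genes inside. Most intervals without a protein-coding gene lie near 20%, and those above 80% are mainly intervals with a receptor or other protein-coding start.

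The core motif itself was not missing from the long intervals. With at most 1 mismatch they held 16073 matches, 45 per Mb, against 70.6 per Mb in the intervals under 300 kb, where matches at peaks were left out, a ratio of 0.637. In 10 kb windows of equal GC the gap to these unbound matches was small. From 32% to 46% GC, in bins of 2 percentage points, the density inside was 0.995 to 1.08 times theirs. In these bins 17% to 25.7% of the matches elsewhere were at peaks and were not counted. The density of all matches was therefore not compared. At 36 to 38% GC the density was 37.1 per Mb inside and 37.2 for unbound matches elsewhere. Beyond that range few windows lay inside: the ratio was 0.736 in 66 windows at 30 to 32% and 1.24 in 301 windows at 46 to 48%. Exact matches numbered 385, or 1.08 per Mb, and 483 of the 696 intervals had none. The ninth longest interval alone held 39 of the 385 and the seventh longest 20, so single gene arrays weigh on the values below. Elsewhere, exact matches at peaks were again left out, and 72.5% of all autosomal exact matches were at a peak. The values therefore do not compare the density of all exact matches. Against the unbound exact matches elsewhere, those inside were denser in 6 of the 7 bins from 32% to 46% GC. Examples are 1.24 against 0.862 per Mb at 38 to 40% GC and 3.79 against 1.64 at 44 to 46%. At 32 to 34% they stood at 0.4 against 0.507. They stood at 2.21 per Mb in the 134 intervals rich in repeated words and at 0.701 in the other 562. Of the exact matches inside, 31.2% lay in soft-masked sequence, against 20.6% of unbound and 15.2% of bound exact matches elsewhere.

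Those matches were seldom near even a weak peak. Over all autosomes, 72.5% of exact matches had a summit past the threshold within 50 bp, and inside the intervals none could by the choice. A candidate peak lay within 50 bp of 59 of the 385 exact matches inside (15.3%, exact interval 11.9 to 19.3), against 843 of 2988 unbound exact matches elsewhere (28.2%, 26.6 to 29.9). Of the 59 inside, 7 lay in the ninth longest interval. With at most 1 mismatch the shares were 4.04% inside and 14.8% elsewhere. From 32% GC up the share was lower inside in every bin: in windows of 36 to 38% GC the shares were 4.38% inside and 10.8% elsewhere, and at 42 to 44% they were 2.53% and 16.3%. Outside the intervals, 17.1% of matches in the 36 to 38% windows had a summit past the threshold.

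Candidate peaks were correspondingly sparse. The long intervals held 3574 of 111328 autosomal candidates (3.21%), 10 per Mb against 53 per Mb elsewhere. Their median signal was 25.5 inside and 27.2 elsewhere. The number per interval had a median of 4 and a maximum of 24, and 30 intervals had none. Per Mb there were 4.25 in intervals with receptor genes, 9.68 in those with other starts, 10.1 in those without a gene and 16.3 in those that overlapped a gene but held no start. The strongest candidate inside had a signal of 228, with 36.4 in replicate 1 and 116 in replicate 2, at position 32920620 on chromosome 15. The start of Sdc2, a heparan sulfate proteoglycan of the cell surface that was looked up after this value was seen, is at 32920723.

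The number of summits counted inside differed between the lists. A summit counted as inside at any distance from the edge. An edge peak whose summit lay further inward in another list could therefore count. Such summits were not told apart from sites deeper in the intervals. Replicate 1 alone had 490 summits inside the intervals, 0.656% of its 74743 autosomal summits, and 309 of the 696 intervals had none. Replicate 2 alone had 503 (0.653%), and 306 intervals had none. The median signal of these summits was 77.3 and 85.8, below the 104 and 106 of their full lists. Only 132 of the replicate 1 summits had a replicate 2 summit within 100 bp. The list made from pooled reads had 25 summits inside, and 672 intervals had none. In all 4 lists 139 intervals (20%) were empty. This share is not particular to the long intervals. Of the 87338 intervals under 300 kb, 16921 were empty in all 4 lists, and of the 42791 under 10 kb, 8443 were. Of the bases in the long intervals, 97.3% lay in such an interval when the replicate 1 list was used and 96.1% with the replicate 2 list. Both lists have fewer summits than the 88071 used here, which favours such overlap. In the other direction, 79.6% and 80.5% of the bases in the long intervals of those lists lay in the 696. A further 2 peaks that passed the IDR threshold in the ranked list but are absent from the thresholded list fell inside 2 intervals.

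The flanking sites carried the core motif slightly less often than autosomal sites at large. Of the 1297 summits, 597 (46%, exact interval 43.3 to 48.8) had a match within 50 bp, against 50.6% of all autosomal summits. Both edges had matches on a single strand in 142 long intervals. The motifs converged in 35 of these (24.6%, exact interval 17.8 to 32.6), diverged in 25 and pointed the same way in 82. Convergence had a share of 21.6% in intervals under 10 kb, 23.2% at 10 to 30 kb, 25.2% at 30 to 100 kb and 31% (27.8 to 34.3) at 100 to 300 kb. The interval of the long class contained the value of each shorter class. At 500 kb or more the share was 16.1% of 56.

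The values just inside and just outside the length limit are given as a description. The shortest 3 that were kept, chr7:41199622-41499769, chr10:72678653-72978781 and chr16:19088172-19388185, were 300147, 300128 and 300013 bp from summit to summit. Their flanking signals were 110 and 102, 113 and 106, and 76.8 and 114, and they held 3, 0 and 1 protein-coding starts. The longest 3 that were not kept, chr4:77662523-77961895, chr7:43928721-44228032 and chr14:17048620-17347486, were 299372, 299311 and 298866 bp. Their signals lay between 129 and 480, and they held 0, 15 and 0 starts.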

How the data were processed

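The authors deposited peak lists on mm10 (build per the labels). Which aligner, peak caller and control they used is not given in the sources used here. Peak signal and the scaled IDR score (up to 1000) are scores in the authors' files whose signal scale is not stated, and IDR is deposited as −log10. Summit offsets are as deposited by the authors. Peaks were called between replicates, per replicate and on pooled reads. The columns for replicates 1 and 2 were checked against the single-replicate lists: of 199420 ranked autosomal peaks, 78.1% and 80% were found unchanged in their own list and 0 in the other.

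Summits (1-based) of the between-replicate list at IDR 0.05 gave the intervals. Gaps, GC, soft-masking and the 12-base motif (both strands) were read from GRCm38, and repeated 32-base words were counted from a sample of 1 in 64. Gene starts are the 5′ ends of gene records. Shares carry 95% Clopper-Pearson exact intervals, which include counting error alone, and read depth is unknown.

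The members and lists were chosen with earlier results of these data known. Intervals named were the 10 longest, the 5 with the most protein-coding starts, the 3 with the strongest and the 3 with the weakest lower edge and the 3 on either side of 300 kb. Genes named were the first 5 starts in each of the 10 longest and their neighbours, the 10 genes covering most bases, up to 3 of each family by alphabet, and the synaptic, channel and patterning genes inside, of which 1 is not reported here. The technical libraries of a replicate share their values, so the replicates measure spread between pools only. Alternatives were another length limit (200 or 500 kb), IDR 0.01, the other lists, gap limits, whole gene bodies and other mismatch limits. The code was tested on simulated data. Scripts ran in Python 3.11.15 with scipy 1.17.1, numpy 2.4.6, matplotlib 3.10.9 and pandas 2.3.3.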

Additional observations from a re-analysis of the deposited data

How the results depend on the processing

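None of the 69 alternative values reversed a direction. Values are given below for counts and totals that changed by over 1.5 times, for a convergent share outside its exact interval, and for GC and ratios that differed by more than the SD between the single-replicate lists. That SD was small, so the GC values and most ratios below lie close to the reported ones. The number of intervals was 1466 from 200 kb and 229 from 500 kb, their total length 543 and 183 Mb, and those without a protein-coding start 1059 and 142. The ratio of flanking to overall median signal (0.905) was 0.917 from 200 kb, 0.841 from 500 kb, 0.915 at IDR 0.01, 0.931 with the pooled-read list, 0.881 with overlapping peaks reduced to the strongest, and 0.943 to 0.952 with either replicate left out. GC content (38.1%) was 38.4%, 38.1%, 38.2% and 38.3% in the first 4 of these and 38.2% with either replicate left out. The ratio of motif density inside to elsewhere, where matches at peaks were left out, was 0.637. It was 0.607, 0.695, 0.615 and 0.591 in those first 4, 0.734 for exact matches and 0.742 with at most 2 mismatches. With either replicate left out it was 0.601 to 0.602. The convergent share (24.6% of 142) was 16.1% of 56 from 500 kb and 40% of 10 with exact matches, and candidates inside (3574) fell to 1236 at an IDR of 0.5 or less. The cause of these shifts was not tested; the alternatives keep other intervals or fewer motifs by construction. No paired analysis was possible because the technical libraries of a replicate share a single peak list and no result comes from a test. Read depth is unknown, so a weak site inside an interval may not have been detectable.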
